A study of Homo sapiens with 24 samples.

Results

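This report describes genes whose RNA moved in opposite directions in MB468 and MB468res-R8 (R8) cells by 12 h after Met in the medium was replaced with its precursor Hcy. The rule took mean CPM (a gene's reads scaled to the total of all genes in the library, spike-ins left out) of the 3 libraries of a group and added 0.5 CPM. It kept genes with a mean of at least 2 CPM in any 0 h or 12 h group and a log2 ratio of 12 h to 0 h of at least 0.8 in one line and at most -0.8 in the other. Of 26641 genes counted, 12478 reached 2 CPM, and 55 of these met the rule (0.425% of the 12478 in the first direction with FGF21, 0.024% in the second), 52 that rose in MB468 and fell in R8 and 3 that fell in MB468 and rose in R8. Among 7 integrated stress response genes left out by name, 1 (FGF21) also met it. The genes were chosen by their 0 h and 12 h values, so every value at 0 h or 12 h is given here as a description without a test.

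MB468 (MDA-MB-468) is a human triple-negative breast cancer line that needs exogenous Met to proliferate, and R8 (MDA-MB-468res-R8) is 1 clone derived from it by long culture in Hcy medium, which grows without Met. Poly(A) RNA was sequenced with ERCC spike-ins from cells in Met+ medium (0 h, 100 µM Met) and 0.5, 2 and 12 h postmedia switch to Met-Hcy+ medium (no Met, 370 µM Hcy), with 3 libraries per line and time and 24 in all. All groups shared dialyzed serum, glutamine, cysteine and vitamin B12 in the medium. Without a 12 h group in Met+ medium, the medium change itself, the time in culture and the loss of Met cannot be told apart. Total gene counts ranged from 11712531 to 36401605 per library. All 10 breast epithelial markers checked (EPCAM, keratins and others) were above 1 CPM in every library. Of 17 leukocyte, endothelial and fibroblast markers 10 were below 1 CPM in every library. Others were above 1 CPM in every library, namely KDR (7.25 to 390 CPM), CD14 (20.8 to 160), COL1A1 (15.5 to 72.6) and CD68 (2.88 to 9.78). ESR1, PGR and ERBB2 summed to 41.7 to 115 CPM, with 1 of the 3 below 1 CPM in every library.

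Of the 52 genes 11 were in a list of a known program or gene family and 41 were in none. Immediate early genes such as EGR1 and EGR2 encode transcription factors whose RNA appears within minutes of a stimulus, without new protein synthesis, and is short-lived. The integrated stress response is the pathway in which amino acid shortage or endoplasmic reticulum stress lowers general translation while translation of the transcription factor ATF4 increases, and ATF4 and its partner CHOP raise the RNA of amino acid transporters and secreted stress factors. The GADD45 proteins are small stress-induced proteins that bind MAP kinase kinases and cell cycle regulators.

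In MB468 1637 genes had a log2 ratio of at least 0.8 (13.1% of the 12478) and in R8 1036 had one of at most -0.8 (8.3%). The 52 genes are 3.18% of the former and 5.02% of the latter. The reverse pattern was rarer, the 3 genes being 0.328% of the 915 that fell in MB468 (7.33% of all) and 1.18% of the 255 that rose in R8 (2.04%). The median log2 ratio of the 52 genes was 1.16 in MB468 and -1.07 in R8, with ranges of 0.80 to 2.26 and -2.18 to -0.80. In MB468 every 12 h library lay above every 0 h library for 51 of them (47.9% of all 12478 genes did so), and in R8 the 12 h libraries were all lower than those at 0 h for 51 (34.9% of all genes). Both counts use the values that chose the genes. The last genes inside the rule were CITED4 (0.80 in MB468, -1.07 in R8) and C19orf54 (0.95, -0.80), and the first outside were FILIP1 (0.80, under the threshold before rounding, -1.89) and ACTBL2 (0.79, -1.38). In the reverse direction TEX15 and U2AF1 stood just inside, and PARD6G-AS1 (-0.75, 0.74) and PCOLCE2 (-0.73, 1.08) just outside.

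**Figure D1:**
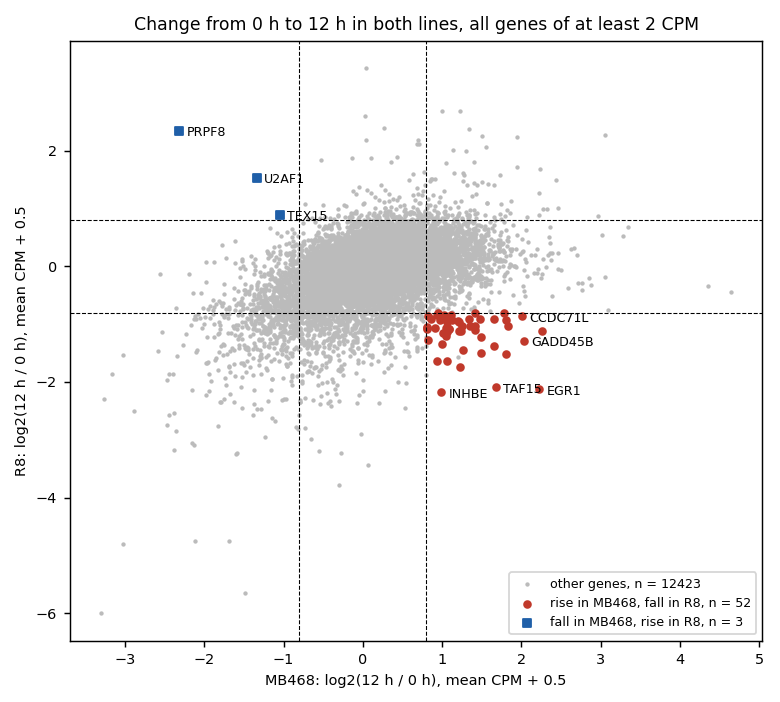
Each point is a gene, with the log2 ratio of 12 h to 0 h in MB468 on the x axis and in R8 on the y axis (means of 3 libraries plus 0.5 CPM). Dashed lines mark 0.8 and -0.8. The 52 genes that rose in MB468 and fell in R8 (red circles) lie at the lower right and the 3 reverse genes (blue squares) at the upper left, with all other genes, FGF21 among them, in gray.

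**Figure D2:**
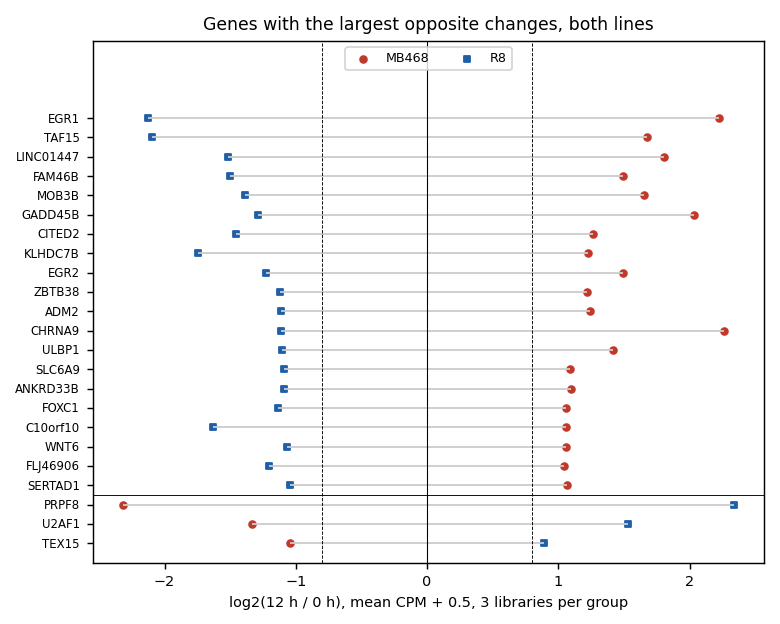
The log2 ratio of 12 h to 0 h (x axis, means of 3 libraries plus 0.5 CPM) is drawn in MB468 (red circles) and R8 (blue squares) for the 20 of the 52 genes with the largest change in the line that moved less, ordered by that change from EGR1 at the top to SERTAD1, with the 3 reverse genes under the line.

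Promoter sequence is shown for 4 of the genes to show examples of the motifs searched. These 4 were chosen after the values were seen. EGR1 carries a pair of CArG boxes, the binding sequence of serum response factor in immediate early promoters, and GADD45B, CITED2 and SLC7A5 carry an E-box (CACGTG), a sequence bound by MYC, USF and other basic helix-loop-helix factors. Each line gives the 250 bases before the annotated start on the gene's strand, from RefSeq (GRCh38.p14), with the matches in capitals. The windows are chr5:138465229-138465478 (plus strand) for EGR1, chr19:2475877-2476126 (plus) for GADD45B, chr6:139374649-139374898 (minus) for CITED2 and chr16:87869508-87869757 (minus) for SLC7A5.
EGR1: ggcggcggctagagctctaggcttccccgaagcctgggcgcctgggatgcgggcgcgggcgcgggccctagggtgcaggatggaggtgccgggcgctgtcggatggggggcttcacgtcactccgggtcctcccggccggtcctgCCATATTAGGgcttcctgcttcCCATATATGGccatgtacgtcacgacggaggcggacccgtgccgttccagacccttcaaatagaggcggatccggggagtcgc
GADD45B: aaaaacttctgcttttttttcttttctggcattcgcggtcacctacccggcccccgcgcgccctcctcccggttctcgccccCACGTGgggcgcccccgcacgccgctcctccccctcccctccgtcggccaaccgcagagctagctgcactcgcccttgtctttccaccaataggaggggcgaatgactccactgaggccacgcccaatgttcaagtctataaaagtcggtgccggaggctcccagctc
CITED2: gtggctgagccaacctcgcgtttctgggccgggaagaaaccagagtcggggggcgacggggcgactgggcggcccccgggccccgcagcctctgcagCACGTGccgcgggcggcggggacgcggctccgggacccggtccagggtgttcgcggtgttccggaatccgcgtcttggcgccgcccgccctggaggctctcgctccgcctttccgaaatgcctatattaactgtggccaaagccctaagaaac
SLC7A5: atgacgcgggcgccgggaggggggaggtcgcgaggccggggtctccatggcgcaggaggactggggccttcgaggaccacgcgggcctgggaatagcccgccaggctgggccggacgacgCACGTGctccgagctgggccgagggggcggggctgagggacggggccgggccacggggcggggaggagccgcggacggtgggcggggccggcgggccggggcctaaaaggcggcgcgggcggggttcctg
The matches begin 105 and 83 bases before the start of EGR1, 168 before that of GADD45B, 153 before that of CITED2 and 130 before that of SLC7A5. None of these overlapped another motif searched. Of the 52 genes 37 had a promoter in the RefSeq table used (250 bases before to 50 after the start). An E-box stood in 6 of 37 (16.2%), the others being LATS2, ARIH2OS and C19orf54, against 9.98% of 9824 genes of at least 2 CPM and 7.26% of all 35116 promoters in the table. A CArG box stood in 1 of 37, EGR1, against 1.01% of expressed genes. The AP-1 sequence TGACTCA and the ATF4-C/EBP composite TGATGCAA stood in 0 of 37, against 3.04% and 0.519% of expressed genes. Both strands were searched, and a match is a description of letters, not of binding.

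The immediate early genes EGR1 and EGR2 peaked early and then fell, while staying above their 0 h level in MB468. EGR1 (Entrez gene 1958, chr5:138465479-138469303 in GRCh38, 2 exons) encodes a zinc-finger transcription factor. In MB468 its levels were 43.7, 42.4 and 38.2 CPM at 0 h, 1256, 1257 and 1442 at 0.5 h, 536, 564 and 547 at 2 h and 209.9, 189 and 188 at 12 h. In R8 they were 37.7, 45.7 and 44.7 CPM at 0 h, 775, 843 and 890.3 at 0.5 h, 26.4, 30.0 and 27.6 at 2 h and 7.67, 12.4 and 8.15 at 12 h. Both lines started at overlapping levels and peaked at 0.5 h, after which R8 was below its own 0 h libraries by 2 h while MB468 was still above its own at 12 h. The log2 ratio of 12 h to 0 h was 2.22 in MB468 and -2.12 in R8, the largest among the 52 genes when the line that moved less is taken. The 0.5 h and 2 h libraries took no part in the choice of genes. Between them EGR1 changed by -1.21 on the log2 scale in MB468 and by -4.85 in R8, a difference of -3.65 ± 0.14 (SE, n = 3 libraries per group, adjusted p = 2.44e-12, edgeR quasi-likelihood test with Benjamini-Hochberg adjustment).

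EGR2 (Entrez gene 1959, chr10:62811996-62819167), a close relative of EGR1, also peaked at 0.5 h in both lines. It read 0.75, 1.16 and 1.18 CPM at 0 h, 96.9, 78.2 and 96.9 at 0.5 h, 7.25, 5.58 and 6.36 at 2 h and 4.16, 4.23 and 2.97 at 12 h in MB468. In R8 it read 0.997, 0.829 and 1.26 CPM at 0 h, 39.5, 33.1 and 39.8 at 0.5 h, 1.21, 1.37 and 1.14 at 2 h and 0.153, 0.147 and 0.163 at 12 h, the last from 4, 3 and 4 reads. Unlike EGR1, its R8 libraries at 2 h overlapped those at 0 h. R8 was below MB468 in every library at 0.5 h, by -1.26 ± 0.09 on the log2 scale (SE, adjusted p = 8.82e-15, edgeR), and at 2 h, by -2.35 ± 0.18 (adjusted p = 3.21e-14, edgeR). EGR1 was also lower in R8 at 0.5 h (-0.65 ± 0.09, adjusted p = 5.53e-06, edgeR) and far lower at 2 h (-4.29 ± 0.11, adjusted p = 1.7e-16).

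EGR1 and EGR2 are the only immediate early genes among the 52. Of 29 immediate early genes of at least 2 CPM, 15 (51.7%) had a rise of any size in MB468 with a fall of any size in R8 at 12 h, against 20.9% of all genes, and the list's medians were 0.00 and -1.87. The list did not share one pattern. FOS (0.55 and -2.02), EGR3 (0.07 and -3.44) and DUSP1 (0.27 and -1.84) had the fall in R8 without a rise of 0.8 in MB468. Others, such as FOSB (-1.69 and -4.75) and NR4A1 (-1.49 and -5.64), fell in both lines. IER2 (1.72 and -0.45) and KLF10 (1.29 and -0.22) rose in MB468 with a smaller fall in R8. Between 0.5 h and 2 h the change differed between the lines (R8 minus MB468) with a negative sign for 22 of 31 tested immediate early genes and a positive sign for 1 (edgeR, adjusted p under 0.05), against 5.14% and 3.22% of all 14739 genes tested.

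**Figure D3:**
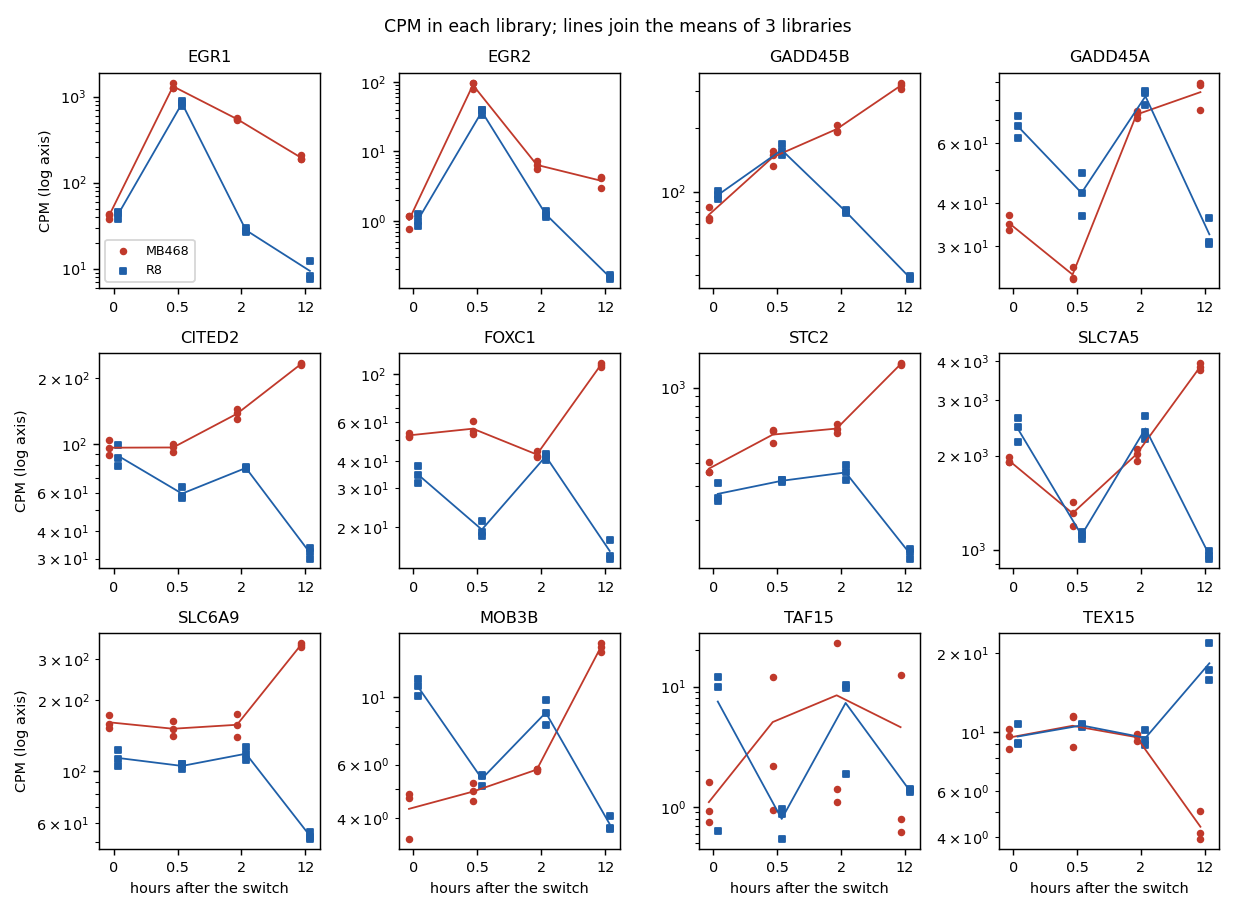
CPM on a log axis is plotted against hours postmedia switch (0, 0.5, 2 and 12 h, evenly spaced) for 12 of the genes, with 1 point per library and lines through the means of 3, MB468 in red circles and R8 in blue squares. EGR1 and EGR2 peak at 0.5 h in both lines, GADD45B parts after 0.5 h, SLC7A5 dips at 0.5 h in both lines, the libraries of TAF15 scatter within groups and TEX15 runs the other way at 12 h.

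The growth arrest genes GADD45B and GADD45A parted at different times. GADD45B (Entrez gene 4616, chr19:2476122-2478259) read 74.6, 73.1 and 84.8 CPM at 0 h, 149, 132 and 156 at 0.5 h, 195, 207 and 192 at 2 h and 328, 308 and 319 at 12 h in MB468. In R8 it read 91.8, 101 and 96.2 CPM, 168, 156 and 149, 81.6, 78.8 and 80.8 and 38.9, 39.7 and 38.6 at the same times. The libraries of the lines overlapped at 0.5 h, where R8 was slightly higher (0.13 ± 0.05 on the log2 scale, SE, adjusted p = 0.0416, edgeR), and separated fully at 2 h. From 0.5 h to 2 h GADD45B rose in MB468 by 0.50 ± 0.05 on the log2 scale and fell in R8 (-0.94 ± 0.05), and this difference had the smallest adjusted p of the 52 genes (-1.44 ± 0.08, SE, adjusted p = 6.3e-17, edgeR quasi-likelihood test).

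GADD45A (chr1:67685201-67688334) instead dipped at 0.5 h and stood above its 0 h libraries at 2 h in both lines. Its levels were 34.8, 33.3 and 36.9 CPM at 0 h, 24.1, 25.9 and 24.2 at 0.5 h, 72.7, 74.2 and 70.8 at 2 h and 89.7, 88.6 and 74.8 at 12 h in MB468, and 62.1, 67.3 and 72.1, then 36.8, 42.8 and 48.9, then 85.1, 83.7 and 77.2, then 30.7, 36.1 and 30.4 in R8. R8 held more GADD45A RNA than MB468 at 0 h and at 0.5 h (0.79 ± 0.09, adjusted p = 2.28e-08, edgeR), did not pass the test at 2 h (0.17 ± 0.08, adjusted p = 0.0678), and held less at 12 h. TP53INP1, a p53-inducible protein of autophagy, is the third p53 target of the set. It was up by 0.5 h in both lines, at 10.6, 9.72 and 10.4 CPM in MB468 and 10.3, 9.56 and 11.6 in R8, and by 12 h stood at 9.67, 10.9 and 8.98 against 1.53, 1.96 and 2.12. Of 23 p53 targets measured, 11 (47.8%) had a rise in MB468 with a fall in R8 of any size at 12 h, against 20.9% of all genes. These 11 include the 3 of the set, and the medians of the 23 were 0.47 and -0.33. CDKN1A, the best known of the p53 targets, was lower at 12 h in both lines (-1.38 and -2.39).

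Of the 52 genes 4 were in the list of ATF4 and CHOP targets, namely SLC7A5, STC2, SLC6A9 and JDP2. SLC7A5 (Entrez gene 8140, chr16:87830023-87869507) encodes LAT1, which carries large neutral amino acids including Met. It read 1908, 1907 and 1977 CPM at 0 h, 1307, 1191 and 1422 at 0.5 h, 2103, 2028 and 1925 at 2 h and 3853, 3762 and 3951 at 12 h in MB468. In R8 it read 2475, 2644 and 2210.1 CPM at 0 h, 1117, 1082 and 1139 at 0.5 h, 2379, 2677 and 2266 at 2 h and 986, 956 and 935 at 12 h. Both lines dipped at 0.5 h and were back near their 0 h level at 2 h, and the divergence appeared between 2 h and 12 h. The rebound from 0.5 h to 2 h was larger in R8, by 0.48 ± 0.10 on the log2 scale (SE, adjusted p = 0.00274, edgeR quasi-likelihood test), a sign opposite to that of the 12 h values.

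STC2 (chr5:173314723-173328447), a secreted glycoprotein hormone induced by stress, read 356, 357 and 404 CPM at 0 h and 1347, 1329 and 1312 at 12 h in MB468, and a mean of 274 ± 33.2 (SD, n = 3) and then 125, 140.3 and 135 in R8. It was lower in R8 at 0.5 h (-0.80 ± 0.08) and at 2 h (-0.78 ± 0.08), with adjusted p of 2.35e-07 and 2.67e-07 (edgeR), and its libraries at 0 h were lower as well. SLC6A9, the glycine transporter GLYT1, read 153, 158 and 173 CPM at 0 h and 344, 338 and 349.7 at 12 h in MB468, and 105, 123 and 112 and 55, 51.5 and 52.6 in R8. It too was lower in R8 before 12 h (-0.51 ± 0.07 at 0.5 h, adjusted p = 2.07e-06, edgeR). JDP2, a repressor of the AP-1 family, did not differ between the lines beyond its error at 0.5 h (-0.07 ± 0.08, adjusted p = 0.512, edgeR) or 2 h (-0.05 ± 0.08, adjusted p = 0.611) and stood at 45.9, 44.1 and 45.3 CPM in MB468 against 12, 11.6 and 13.8 in R8 at 12 h.

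Of 36 ATF4 and CHOP targets measured, 24 (66.7%) had a rise of any size in MB468 with a fall of any size in R8 at 12 h, and none the reverse. The shares of all 12478 genes were 20.9% and 13.1%. The medians of the 36 were 0.82 and -0.63 against 0.11 and 0.00 for all genes. PPP1R15A (1.97 and -0.63), SLC3A2 (1.10 and -0.53) and SLC7A1 (1.07 and -0.60) moved the same way without reaching -0.8 in R8. ASNS (-0.87 and -1.17) and PHGDH (-0.64 and -0.74), enzymes of asparagine and serine synthesis, were lower in both lines. For ASNS in MB468 the paper reported the opposite direction, an upregulation in Met-Hcy+ medium by quantitative PCR. Its control was cells in Met+ medium for 12 h, whereas the ratio here is to Met+ cells at 0 h. The reason for the difference was not tested. At 2 h 28 of the 36 were lower and 3 higher in R8 (edgeR, adjusted p under 0.05), against 29.5% and 26.6% of all genes (56.1% in either direction). At 0.5 h the skew was similar, with 26 lower and 1 higher, against 24.5% and 24.5% of all genes. Most of the 36 already had a lower mean in R8 than in MB468 at 0 h, before the switch. ASNS was one of these (216 against 353 CPM), while others, such as SLC7A5, were higher in R8 (2443 against 1931). The skew at 0.5 h and 2 h is thus not a measure of the response to Met-Hcy+ medium. Of the 32 targets outside the set, 26 were lower and 2 higher at 2 h. The change from 0.5 h to 2 h differed between the lines with a negative sign for 11 of the 36 and a positive sign for 1, with a median difference of 0.02. Of 20 amino acid transporters 9 (45%) had the rise in MB468 with a fall in R8, SLC7A5 and SLC6A9 among them, and 3 (15%) the reverse. The shares of all genes were 20.9% and 13.1%.

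Other secreted or surface proteins in the set included ADM2 (a calcitonin family peptide), INHBE (an activin subunit), ULBP1 (a ligand of the natural killer receptor NKG2D), WNT6, PRSS8 (prostasin) and CHRNA9. INHBE fell furthest in R8, from 5.47, 8.58 and 4.36 to 1.11, 0.931 and 0.855 CPM, while in MB468 it went from 3.63, 4.62 and 7.7 to 11.8, 10.6 and 10.7. ULBP1 went from 12.5, 12.4 and 16.1 to 39.3, 33.9 and 38.6 CPM in MB468 and from 7.77, 8.68 and 7.06 to 2.57, 3.43 and 4.11 in R8. ADM2 went from 68.4, 68.4 and 79.5 to 169, 170.1 and 173 CPM in MB468 and from 54.9, 66.7 and 54.9 to 26.5, 27.6 and 26.7 in R8. ULBP1 and ADM2 were also lower in R8 at 2 h (-1.02 ± 0.12 and -0.39 ± 0.09, adjusted p = 1.17e-08 and 0.000466, edgeR). WNT6 did not pass the test at 0.5 h (-0.09 ± 0.14, adjusted p = 0.659, edgeR) or 2 h (0.15 ± 0.15, adjusted p = 0.421) and read 110.4, 101 and 113 CPM in MB468 against 23, 22.4 and 25.6 in R8 at 12 h. CHRNA9, a nicotinic acetylcholine receptor subunit, rests on few reads in R8 (28, 14 and 5 at 0 h and 1, 1 and 0 at 12 h), so its fall in R8 is not given as a fold.

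Transcription regulators and chromatin proteins, described here by their known roles and not from a list, included CITED2, FOXC1 and ZBTB38. CITED2 (chr6:139371807-139374648), a partner of the coactivators CBP and p300, read 95.4, 104 and 89.3 CPM at 0 h and 234, 232 and 228 at 12 h in MB468, against 86.7, 98.8 and 79.4 and 32.2, 33.6 and 30.0 in R8. The lines overlapped at 0 h, and R8 was lower by 0.5 h (-0.69 ± 0.06, adjusted p = 1.77e-11, edgeR) and at 2 h (-0.83 ± 0.06, adjusted p = 4.74e-14). Its relative CITED4 was among the genes nearest the threshold. The linker histone gene H1F0 went from 629, 575 and 644 to 1902, 1908 and 1995 CPM in MB468 and from 544, 539 and 517 to 281, 289.9 and 280.0 in R8. With H1F0 itself, 9 of 11 histone genes measured (81.8%) had a rise in MB468 with a fall in R8 of any size, against 20.9% of all genes. Of 22 histone genes listed only these 11 reached 2 CPM. The libraries were of poly(A) RNA, so histone RNA without a poly(A) tail was not assessed.

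FOXC1 (Entrez gene 2296, chr6:1609915-1613897, 1 exon), a forkhead factor known as a marker of basal-like breast cancer, was lower in R8 than in MB468 at every time except 2 h, when the libraries overlapped. It read 51.5, 53.7 and 52 CPM at 0 h, 54.8, 60.6 and 53.2 at 0.5 h, 42.3, 41.7 and 44.5 at 2 h and 109.5, 108 and 112 at 12 h in MB468. In R8 it read 34.5, 37.8 and 31.9 CPM at 0 h, 18.9, 18.3 and 21.2 at 0.5 h, 42.4, 43.3 and 40.5 at 2 h and 14.8, 14.4 and 17.5 at 12 h. R8 was far below MB468 at 0.5 h (-1.52 ± 0.07, adjusted p = 2.06e-21, edgeR), level with it at 2 h within overlapping libraries (-0.04 ± 0.07, adjusted p = 0.659) and below it again at 12 h.

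ZBTB38, a zinc-finger protein that binds methylated DNA, was higher in R8 than in MB468 until 12 h. It read 152, 151 and 158 CPM at 0 h and 367, 356 and 349.7 at 12 h in MB468, against 288, 294 and 275 and 127, 137 and 128 in R8, and the order of the lines was reversed. R8 was higher at 0.5 h by 0.59 ± 0.04 and at 2 h by 0.87 ± 0.04 on the log2 scale (SE, adjusted p = 2.04e-14 and 5.15e-20, edgeR). IRF2BP2, a corepressor, and SERTAD1, a CDK4-binding regulator, were lower in R8 at 2 h (-0.73 ± 0.04 and -0.75 ± 0.09, adjusted p = 9.01e-20 and 5.65e-09, edgeR). SERTAD1 was already lower in every R8 library at 0 h (mean 17.1 against 27.1 CPM in MB468). IRF2BP2 was instead higher in every R8 library at 0 h (mean 237 against 207 CPM). ZXDB belongs to a pair of near-identical X-linked zinc-finger genes, so its reads may be split with its copy.

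Among signalling genes, MOB3B, a MOB family kinase regulator, had the same reversal of order as ZBTB38. It read 4.81, 3.43 and 4.66 CPM at 0 h and 15, 14.6 and 14.1 at 12 h in MB468, against 11.5, 10.1 and 10.9 and 3.72, 4.07 and 3.71 in R8. FAM46B, a noncanonical poly(A) polymerase, and C10orf10 (DEPP), a FOXO-responsive gene, were higher in R8 than in MB468 at 0.5 h (0.53 ± 0.07 and 0.64 ± 0.12, adjusted p = 2.21e-08 and 0.000172, edgeR) and lower at 2 h (-0.33 ± 0.06 and -0.44 ± 0.11, adjusted p = 3.41e-05 and 0.00194). In MB468 the libraries of both at 2 h overlapped those at 12 h, with 103, 104 and 94 then 107, 95 and 96.3 CPM for FAM46B and 115, 122 and 107 then 116, 106 and 109 for C10orf10. LATS2, a Hippo pathway kinase, read 41.6, 39 and 44.6 CPM at 0 h and 99.3, 97.1 and 96.7 at 12 h in MB468, and 43.3, 45.6 and 39.3 and 22.6, 21.4 and 21.4 in R8.

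The remaining named genes were KLHDC7B, ANKRD33B and the noncoding LINC01447 and FLJ46906 (NHSL1-AS1). LINC01447 went from 4.93, 5.01 and 4.9 to 19, 16.2 and 20.5 CPM in MB468 and from 5.61, 5.61 and 5.34 to 1.5, 1.57 and 1.75 in R8, with a 2 h difference between the lines of -0.35 ± 0.14 (adjusted p = 0.0322, edgeR). KLHDC7B reached 5.7, 4.23 and 4.91 CPM in MB468 and fell to 0.652, 0.392 and 0.815 in R8. FLJ46906 and ARIH2OS, also in the set, lie antisense to other genes, and the library kit did not mark strand, so their reads cannot be told apart from those of the opposite strand.

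ANKRD33B had the deepest dip at 0.5 h of the 52 genes in MB468. Its levels were 14.8, 14.2 and 17.1 CPM at 0 h, 1.82, 1.93 and 1.28 at 0.5 h, 14.7, 14.6 and 13.1 at 2 h and 36.9, 34.2 and 29 at 12 h in MB468, and 14.1, 15 and 19.4, then 4.49, 3.68 and 3.59, then 23.1, 24.3 and 23.8, then 6.21, 7.94 and 7.82 in R8. It rose from 0.5 h to 2 h in both lines (3.07 ± 0.16 and 2.62 ± 0.13, adjusted p = 9.11e-19 and 8.27e-20, edgeR), without a difference between them that passed the test (adjusted p = 0.227).

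Seen over time, the set had 3 shapes at 0.5 h. In MB468 9 of the 52 genes were up by at least 0.8 on the log2 scale against 0 h (EGR1, EGR2, GADD45B, ULBP1, JDP2, ISL2, TP53INP1 and TAF15 among them), 5 were down by that much (ANKRD33B, SERTAD1, MRVI1, FAM179A and HTR1D), and the rest moved less. These are 17.3% and 9.62% of the 52, against 1.82% and 1.97% of all 12478 genes. In R8 5 were up and 10 down, 9.62% and 19.2%, against 1.84% and 2.27% of all genes. At 2 h 14 were up in MB468 (26.9% against 1.35% of all genes) and 0 down (0.457% of all genes), while in R8 0 were up and 0 down by 0.8 (0.401% and 0.152% of all genes). TAF15 is counted among the genes up in MB468 at both times and down in R8 at 0.5 h. Its libraries overlapped those at 0 h each time (2.18, 12.1 and 0.939 CPM in MB468 at 0.5 h). The 0.5 h and 2 h changes share the 0 h libraries with the choice of genes and were not tested. The 12 h libraries of R8 were all lower than those at 2 h for 51 of the 52 (33.8% of all genes), and those of MB468 were all higher for 40 (47.4%). By 2 h 15 of the 52 genes, TAF15 among them, had covered at least 50% of their 12 h log2 ratio in MB468 and 1 had in R8. The 12 h ratio chose the genes and the share of all genes was not computed. These 2 counts therefore do not show a timing particular to the set.

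Starting levels did not share one direction. At 0 h every R8 library lay above every MB468 library for 24 of the 52 genes (30.3% of all genes), below for 12 (34.3%), and the libraries overlapped for 16. At 12 h every R8 library lay below every MB468 library for 51 (49.7% of all genes), as the rule favors.

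The libraries at 0.5 h and 2 h allowed tests that the choice of genes did not use. At 0.5 h 12 of the 52 genes were higher and 19 lower in R8 than in MB468 (edgeR quasi-likelihood test, Benjamini-Hochberg adjusted p under 0.05 over 14739 genes), against 24.5% higher and 24.5% lower of all genes. At 2 h 13 were higher and 25 lower, against 26.6% and 29.5%, or 38 in all against 56.1%. The 31 called at 0.5 h compare with 49.1% of all genes. The median log2 difference went from -0.06 at 0.5 h to -0.30 at 2 h, with all genes at 0.00 and -0.02. From 0.5 h to 2 h 23 rose and 10 fell in MB468 (17% and 15.7% of all genes, 32.7% together), and 21 rose and 8 fell in R8 (17% and 18.3%, 35.2% together). With library sizes set by the spike-ins the 23 and 10 became 15 and 16, against 4.6% and 20.5% of all genes. All 55 genes passed the filter on low counts, and none of the 3 reverse genes passed any of these tests.

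The change from 0.5 h to 2 h differed between the lines for 19 of the 52 genes, 36.5% of them, against 8.36% of all genes. R8 minus MB468 was negative for 12 (5.14% of all genes) and positive for 7 (3.22%). With library sizes set by the spike-ins, the 12 and 7 became 6 and 4, against 0.699% and 1.07% of all genes, namely EGR1, EGR2, GADD45B, FAM46B, C10orf10 and TSC22D1 on the negative side and FOXC1, SPATA2L, SOWAHB and SLC7A5 on the positive side.

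**Figure D4:**
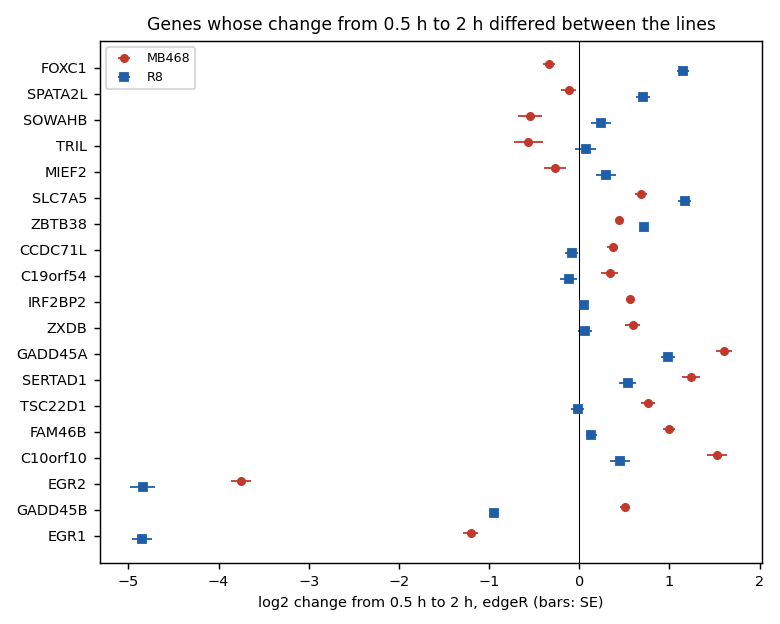
The log2 change from 0.5 h to 2 h (x axis, edgeR estimate, bars are SE, 3 libraries per group) is drawn in MB468 (red circles) and R8 (blue squares) for the 19 genes in which it differed between the lines. EGR1 lies at -1.21 in MB468 and -4.85 in R8, GADD45B at 0.50 and -0.94, and FOXC1 at -0.33 and 1.15.

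The 52 genes were short, with few exons, a property that the rule did not use. In GENCODE v44 49 of them could be matched, 46 as protein-coding genes, on 20 chromosomes. Their median span from start to end was 7172 bases, against 33888 for 12006 genes of at least 2 CPM, and their median exon number was 4 against 9. A single exon in the canonical transcript was found in 9 (18.4%), namely KLHDC7B, FOXC1, ZXDB, H1F0, SOWAHB, CCDC71L, TRIL, ARIH2OS and CITED4, against 2.71% of all genes. At most 3 exons were found in 22 (44.9%) against 13.7%. The same share was 27.2% among 1571 genes that rose by 0.8 in MB468 and 18.5% among 995 that fell by 0.8 in R8, with median spans of 26795 and 29269 bases. Median exonic length was close, at 3236 against 3346.5 bases. These shares are a description, without a test.

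**Figure D5:**
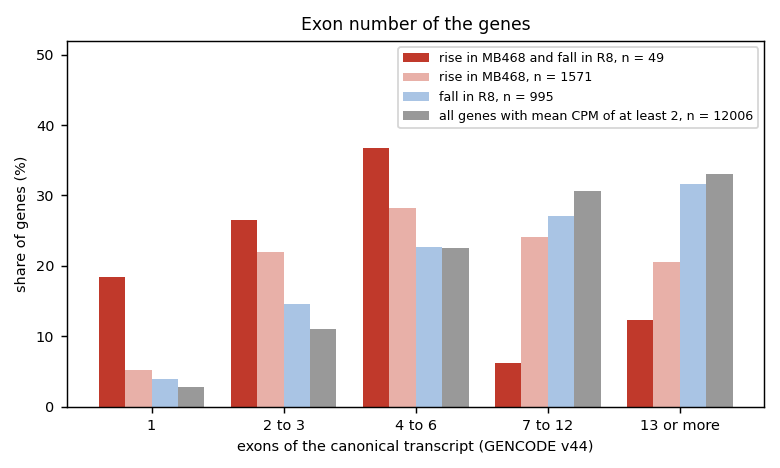
The share of genes (y axis, %) is drawn by number of exons in the canonical transcript (x axis) for the 49 matched genes of the set (red), genes that rose by at least 0.8 in MB468 (pink), genes that fell by at least 0.8 in R8 (light blue) and all genes of at least 2 CPM (gray). Single-exon genes are 18.4% of the set, 5.16% of the genes that rose in MB468, 3.92% of those that fell in R8 and 2.71% of all.

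The libraries of 3 genes scattered widely within groups. TAF15, an RNA-binding protein of the FET family, read 0.75, 1.61 and 0.931 CPM at 0 h and 0.799, 12.4 and 0.618 at 12 h in MB468, against 9.94, 0.634 and 11.9 and 1.42, 1.32 and 1.38 in R8. Its libraries overlapped in both lines, and it left the set without replicate 2 of MB468 at 12 h. It had the widest spread within a group of the 55 genes, 14.7-fold between the highest and lowest library after 0.5 CPM was added. PRPF8 and U2AF1, components of the splicing machinery, also varied widely (8.83-fold and 14.4-fold). PRPF8 read 1.62, 18.2 and 14.3 CPM at 0 h and 2.05, 1.66 and 1.94 at 12 h in MB468, against 2.13, 2.05 and 1.9 and 13.3, 20.5 and 2.97 in R8. It was high in 2 of 3 libraries in each of its higher groups, and it stayed in the set whichever library was left out. Its 0 h and 12 h libraries still overlapped in MB468, so staying in the set does not make its change a steady one. The cause of the scatter in these 3 genes was not tested. U2AF1, which has a near-identical copy in GRCh38 that can take its reads, read 8.64, 9.21 and 1.43 at 0 h and 1.65, 3.02 and 2.06 at 12 h in MB468, against 2.06, 2 and 2.3 and 3.53, 2.79 and 14.9 in R8, and it left the set without replicate 3 of R8 at 12 h. These 3 were the only genes of the 55 with a group spread over 4-fold, as had 54 of the 12478 genes (0.433%). Without them the set was 51 and 1.

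The 1 gene left in the reverse direction was TEX15, a protein known from male meiosis and transposon silencing. It read 10.3, 9.73 and 8.63 CPM at 0 h, 11.6, 11.4 and 8.79 at 0.5 h, 9.26, 9.65 and 9.86 at 2 h and 4.16, 5.03 and 3.94 at 12 h in MB468. In R8 it read 10.7, 9.07 and 9.13 CPM at 0 h, 10.7, 10.8 and 10.5 at 0.5 h, 10.2, 9.37 and 8.97 at 2 h and 15.9, 21.8 and 17.2 at 12 h. The lines overlapped until 2 h (R8 minus MB468 -0.02 ± 0.12 on the log2 scale at 2 h, adjusted p = 0.905, edgeR) and were fully apart at 12 h, with log2 ratios of -1.04 and 0.89. Leaving out replicate 2 of R8 at 12 h removed TEX15 from the set.

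Membership also depended on scaling and on single libraries near the threshold. Scaling by spike-ins lowered the median of all genes in MB468 by 0.31 on the log2 scale, and 26 of the 52 genes still met the rule, with all 52 still above 0 in MB468 and below 0 in R8. Of the 52 genes 36 remained whichever 1 of the 12 libraries at 0 h and 12 h was left out, and 16 left in at least 1 case.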

How the data were processed

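Poly(A) RNA of MB468 and R8 cells at 0, 0.5, 2 and 12 h was measured in 24 libraries, 3 per line and time, grouped by the sample labels. The authors sequenced single-end 100-base reads, aligned them with HISAT2 (2.1.0) to GRCh38 with ERCC sequences, and counted reads per gene with featureCounts (Subread 1.5.3, per the submitters' processing notes). The deposited unit used here is raw counts per gene, with spike-ins as separate rows. Symbols listed more than once with identical counts (HBD, MEMO1, MMD2 and TEC) were kept once. A normalized table and a table of the authors' own comparisons (base mean, log2 fold change, its error, statistic, p-value and adjusted p-value) were not used here.

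CPM was computed from the total of all genes without spike-ins, 11712531 to 36401605 counts per library, so 3 reads correspond to 0.0824 to 0.256 CPM. Precision is limited by counting error for genes near this level and by 3 libraries per group elsewhere. The labels do not say that libraries of a group came from separate cultures, so p-values measure the spread between these libraries, which may be technical. Tests used edgeR 4.0.16 (R 4.3.3) with filterByExpr, TMM library sizes, a quasi-likelihood fit over all 8 groups and Benjamini-Hochberg adjustment over the 14739 genes tested, called at an adjusted p under 0.05. The comparisons were R8 minus MB468 at 0.5 h and at 2 h, 2 h minus 0.5 h in each line, and the difference between the lines in that change. The code was tested on simulated data. DESeq2 1.42.0, other scalings, filters and thresholds, a replicate block and omission of each library were the alternatives.

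The genes, the lists and the promoters shown were chosen with earlier results of these data known. Named are every gene of the reverse direction and, of the 52, the 20 with the largest change in the line that moved less, every gene in a list, the 5 with the smallest p for the difference between the lines from 0.5 h to 2 h, and the 2 nearest each side of the threshold. A few of the genes are not reported by name here. Others are named for their role or shape and were chosen after their values were seen. Gene positions are from GENCODE v44 and promoters from RefSeq, both GRCh38.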

Additional observations from a re-analysis of the deposited data

Results flagged for a closer look

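The change from 0.5 h to 2 h differed between the lines, by a test of the difference itself, for 19 of the 52 genes that rose in MB468 and fell in R8 (edgeR quasi-likelihood test with Benjamini-Hochberg adjustment, adjusted p under 0.05, 3 libraries per group, against 8.36% of all genes). R8 minus MB468 on the log2 scale was negative for EGR1 (-3.65), GADD45B (-1.44), EGR2 (-1.09), C10orf10 (-1.07), FAM46B (-0.86), TSC22D1 (-0.78), SERTAD1 (-0.70), GADD45A (-0.62), ZXDB (-0.53), IRF2BP2 (-0.51), CCDC71L (-0.45) and C19orf54 (-0.45). It was positive for FOXC1 (1.49), SPATA2L (0.83), SOWAHB (0.78), TRIL (0.64), MIEF2 (0.57), SLC7A5 (0.48) and ZBTB38 (0.28). GADD45B rose in MB468 and fell in R8 over this interval, and FOXC1 did the opposite, each past the test in both lines. SPATA2L changed by -0.12 in MB468 (adjusted p = 0.312, edgeR) and by 0.71 in R8 (adjusted p = 5.6e-10). For the 7 genes with a positive difference the sign was opposite to that of the 12 h values. The cause was not tested.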

How the results depend on the processing

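The number of genes that rose in MB468 and fell in R8 was 52 and the reverse 3. With spike-in scaling they were 26 and 10, with a threshold of 0.6 they were 123 and 10, and with a threshold of 1 they were 25 and 2. With 0.1 CPM added the reverse count was 6, and 1 without TAF15, PRPF8 and U2AF1 (chosen after seeing the data). Leaving out each library in turn gave 48 to 56 and 2 to 5. TMM or DESeq2 library sizes gave 41 or 43 and 4, 1 CPM added gave 40 and 3, and minimums of 1 CPM, 5 CPM or none gave 54, 44 or 55 and 4, 3 or 4. Of the tested counts (31, 38, 33, 29 and 19 genes called in the 5 comparisons), 19 became 10 under spike-in scaling, and the other counts stayed within 1.5 times under every alternative run. Spike-in scaling moved the split of 2 h minus 0.5 h in MB468 from 23 higher and 10 lower to 15 and 16, and that of all genes from 2505 and 2310 to 678 and 3019. Without each library in turn the counts were 28 to 30, 35 to 39, 29 to 34, 24 to 30 and 17 to 19. Of 2049 single-gene values under the alternatives, 1924 kept direction and call, 124 lost the call and 1 changed sign (H1F0 from 0.5 h to 2 h in MB468, -0.000994 with spike-in scaling). The difference between the lines lost its call without at least 1 library for C19orf54, MIEF2 and TRIL. With DESeq2 all 19 kept it. The cause was not tested.

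Replicate numbers were shared between groups, but same-numbered libraries did not deviate together in most pairs of groups (mean correlations from -0.230 to 0.173 over 6 pairs, lowest -0.453). No pairing was used. Between MB468 and R8 at 0.5 h the same-numbered correlations were all positive (0.038 to 0.254, mean 0.173), against a mean of -0.086 for different numbers. With the replicate number as a block the 5 counts were 30, 38, 33, 28 and 19, and the calls lost were HTR1D at 0.5 h (-0.55, adjusted p = 0.0575, edgeR) and PLEKHF1 in R8 (0.33, adjusted p = 0.0576, edgeR). Depth limits EGR2 and CHRNA9 in R8 at 12 h, which rest on 4 reads or fewer per library.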

Other observations

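Circadian genes shared the direction of the 52 genes in part at 12 h, with 7 of 19 measured (36.8%) higher in MB468 and lower in R8 at any size and none the reverse, and medians of 0.19 and -0.48 on the log2 scale. Heat shock genes ran the other way, with 7 of 12 lower in MB468 and higher in R8 and 1 the reverse, and medians of -0.56 and 0.52. Genes of sterol and fatty acid synthesis (27 measured) had negative medians in both lines (-1.70 in MB468, -0.76 in R8), and 0 of them had opposite signs in the 2 lines. These are descriptions of values at 0 h and 12 h without a test, beside 20.9% of all 12478 genes with a rise in MB468 and a fall in R8 and 13.1% with the reverse.

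Pairs of the 52 genes lay near each other on 1 chromosome in a few cases. ADM2 and KLHDC7B were 59459 bases apart, LINC01447 and PKD1L1 110309, SERTAD1 and C19orf54 314864 and FLJ46906 and CITED2 674519.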
